A study of Mus musculus with 3 samples.

Results

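The RNA of myoblasts differentiating on plain gelatin methacryloyl (GelMA) hydrogel was compared with that of the same cells on tissue culture plastic (TCP). The comparison uses 2 of the 3 deposited samples, the library from GelMA and the library from TCP, and it keeps 13006 of 23238 gene symbols, those with a CPM (counts scaled to library size) of at least 1 in either library. The third library, from GelMA mixed with poly(sodium 4-styrenesulfonate) (PSS), entered the scaling and is given beside some values as GelMA-PSS. C2C12 cells, an immortalized mouse myoblast line, were grown to near confluence in serum-rich medium and then changed to induction medium with 2% horse serum. They stayed in it for 2 days on TCP, on plain GelMA, or on 15% GelMA with 1% PSS. The labels name no genetic change and no other agent in any group, and all groups are the same cell line. With 1 library per substrate, no spread between cultures was measured and no p-value is given. The intervals below are exact 95% intervals that cover counting error only.

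When serum is lowered, myoblasts leave the cell cycle, switch on Myog under the control of Myod1 and Myf5, and fuse into multinucleated myotubes that build sarcomeres. The sarcomere is made of thick filaments of myosin and thin filaments of actin anchored at the Z-disc. Gelatin is denatured collagen, which cells bind through integrins and through the fibronectin they deposit on it, and a hydrogel is softer than plastic.

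Both libraries carried the defining transcripts of differentiating muscle. Desmin (Des), the intermediate filament of muscle, was at 3299 CPM on TCP and 2863 CPM on GelMA. Myog, the transcription factor of terminal differentiation, was at 1100 CPM and 894.8 CPM. Cdh15, the cadherin of myoblasts, was at 668.8 CPM and 609.6 CPM, and the fusion protein Tmem8c was at 1030 CPM and 773.4 CPM. All 12 markers of myoblasts and myotubes examined were above 10 CPM in both libraries. The depth was 119799095 counts on TCP and 87071144 counts on GelMA, so that 3 counts were worth 0.0246 CPM and 0.0330 CPM. In bulk RNA, fewer cells of a kind and less RNA per cell cannot be told apart.

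Against TCP, the GelMA library had lower levels of sarcomeric genes and higher levels of several chemokine genes and of glycolysis and mitosis genes. Ratios were taken on the log2(CPM + 1) scale, GelMA over TCP, which understates the change of genes with few counts. On this scale 93 genes (0.715% of the genes kept) were more than 2-fold higher on GelMA and 39 genes (0.300%) were more than 2-fold lower. At 1.5-fold these numbers were 458 (3.52%) and 279 (2.15%). The ratios of the middle 95% of genes lay between -0.56 and 0.65, with a median of -0.01. The share of genes past 2-fold varied with the level. It was 1.93% of the genes with a mean under 3 CPM, 2.04% from 3 to 10 CPM, 0.984% from 10 to 30 CPM, 0.306% from 30 to 100 CPM and 0.591% above. Of the genes past 2-fold, 28 of the 93 higher and 17 of the 39 lower belong to at least 1 of the 46 gene lists described below. Together the lists hold 1791 of the 13006 genes kept, and they were written with earlier results of these data known. A list with no member past 2-fold is near the share of all genes kept. Some genes passed the level filter only through the library where they are high. With 1 CPM required in both libraries, 66 genes were more than 2-fold higher and 34 lower.

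**Figure D1:**
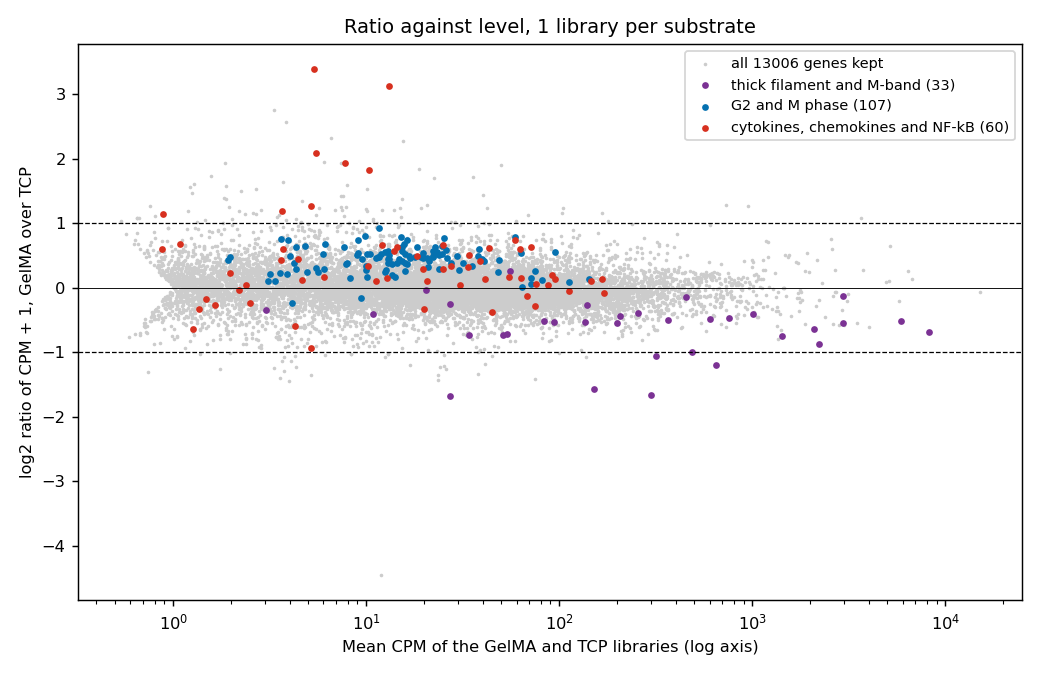
Each point is a gene, with the mean CPM of the GelMA and TCP libraries on a log axis and the log2 ratio of CPM + 1, GelMA over TCP, on the vertical axis, dashed lines at 2-fold, grey points for the 13006 genes kept and colours for thick filament (33), G2 and M phase (107) and cytokine (60) genes. All thick filament genes but 1 lie below 0, and 105 G2 and M phase genes lie above it.

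The regulators of myogenesis were close to level between the substrates. None of the 28 kept myogenic regulatory factors and cofactors was past 2-fold in either direction. Of all genes kept, 0.715% were higher and 0.300% lower, so none among 28 is near that share. The median log2 ratio of the 28 was 0.06, with 16 above 0 and 12 below. Myod1, which commits cells to muscle, was at 94.3 CPM on TCP and 104.6 CPM on GelMA. Myf5, which marks proliferating myoblasts, was at 13.9 CPM and 19.5 CPM, a log2 ratio of 0.46. Myog went the other way, at 1100 CPM and 894.8 CPM (log2 ratio -0.30). The lowest ratio of the list was that of Mef2c, a cofactor of the MyoD family and an activator of contractile genes, which was at 288.8 CPM on TCP and 180.6 CPM on GelMA (log2 ratio -0.68) and the only member past 1.5-fold. Of 26 kept inhibitors of myogenesis and progenitor genes, none was past 2-fold and 5 (19.2%, against 3.52% of all genes kept) were more than 1.5-fold higher on GelMA. Among these were Id3, which blocks MyoD by binding its partners, at 15.2 CPM and 25.99 CPM, and the repressor Snai1 at 9.59 CPM and 17.6 CPM.

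Genes of the thick filament were lower on GelMA nearly as a whole. Of 36 listed genes of the thick filament and M-band 33 were kept. Of these, 32 had a ratio below 0, 13 were past 1.5-fold and 5 past 2-fold, all lower on GelMA. Their median log2 ratio was -0.53, against -0.01 for all genes kept, and their summed level was 38764 CPM on TCP and 25746 CPM on GelMA. The 5 genes past 2-fold were Myl2, Myh6, Myh13, Myh8 and Myh4.

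Myl2, the regulatory light chain of slow and ventricular muscle, was at 41.8 CPM on TCP and 12.5 CPM on GelMA, 3.35-fold lower on GelMA (interval 3.14 to 3.58). Myh6, the alpha myosin heavy chain of the heart, fell from 456.6 CPM to 143.9 CPM on GelMA, a 3.17-fold difference (interval 3.11 to 3.23). Myh13, the heavy chain of extraocular muscle, was at 226.2 CPM and 75.4 CPM, 3.00-fold lower (interval 2.92 to 3.08). Each is best known from heart, slow or extraocular muscle. Myh8, the perinatal heavy chain, was at 904.0 CPM and 393.9 CPM, and Myh4, the fast IIb chain of adult muscle, was at 428.7 CPM and 206.8 CPM. Myh7, the slow chain, lay just outside 2-fold, at 650.9 CPM and 327.1 CPM (log2 ratio -0.99). The antisense transcript Mhrt, which lies over part of Myh7, was at 109.2 CPM and 40.4 CPM, and whether the counting used the strand of the reads is not stated.

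The main embryonic myosin was also lower on GelMA, by less. Myh3 was at 10182 CPM on TCP and 6355 CPM on GelMA, a log2 ratio of -0.68 or 1.60-fold (interval 1.60 to 1.61). The adult fast chains Myh1 and Myh2 had log2 ratios of -0.74 and -0.47. Per kilobase of transcript, Myh3 led in both libraries, with 1688 CPM per kilobase on TCP and 1054 on GelMA. Myh1 came next among the sarcomeric chains with 293.2 and 175.1 CPM per kilobase. On TCP the order then ran through Myh8 (147.0), Myh2 (144.1), Myh7 (104.5), Myh6 (74.7), Myh4 (71.3) and Myh13 (37.3). On GelMA Myh2 (104.2) stood above Myh8 (64.05), and Myh4 (34.4) above Myh6 (23.55). Without a second library the order of neighbours cannot be set against a spread between cultures. The nonmuscle chain Myh9 stood at 172.0 CPM per kilobase on TCP and 239.4 on GelMA, a log2 ratio of 0.48.

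**Figure D2:**
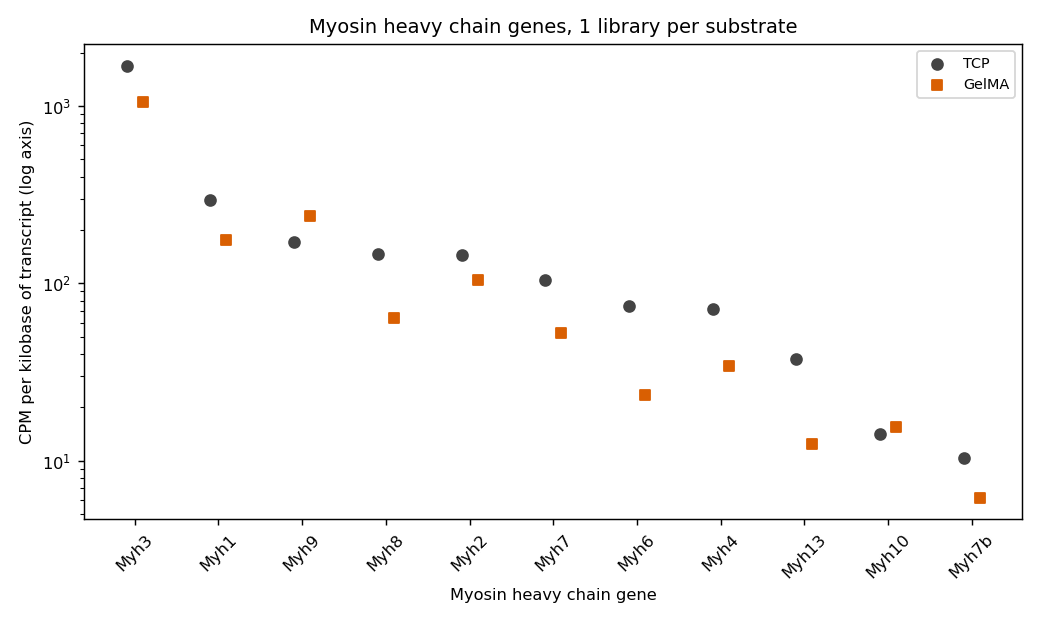
Myosin heavy chain genes in order of their level on TCP, as CPM per kilobase of transcript on a log axis, with circles for the TCP library and squares for the GelMA library. All 9 sarcomeric chains shown are lower on GelMA, with the widest gaps at Myh6 and Myh13, and the nonmuscle chains Myh9 and Myh10 are higher.

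In the GelMA-PSS library, scaled together with the others, Myh3 was at 3036 CPM, Myh8 at 193.4 CPM and Myh6 at 48.4 CPM. The light chain Myl4, with 2867 CPM on TCP and 1574 CPM on GelMA, was at 1564 CPM there.

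Thin filament and Z-disc genes showed the same direction. Of 52 kept genes, 51 had a ratio below 0, 12 were more than 1.5-fold lower on GelMA and 1 was past 2-fold, with a median log2 ratio of -0.47. The gene past 2-fold was Tcap, the titin cap protein of the Z-disc, at 35.5 CPM on TCP and 14.8 CPM on GelMA, 2.40-fold lower (interval 2.26 to 2.56). Csrp3 and Actn2, both Z-disc proteins, were at 120.5 CPM and 357.5 CPM on TCP and at 71.7 CPM and 216.8 CPM on GelMA. The leiomodins Lmod3 and Lmod2, which nucleate thin filaments, had log2 ratios of -0.78 and -0.69. Acta1, the skeletal actin and the most abundant gene of the list per kilobase, was close to level at 6192 CPM and 5379 CPM (log2 ratio -0.20). The troponins Tnnt2 and Tnnt3 had log2 ratios of -0.61 and -0.54.

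Genes of calcium release were lower on GelMA to a smaller degree, and those of innervation and muscle metabolism leaned the same way with smaller medians. Of 37 kept genes of excitation-contraction coupling, 29 had a ratio below 0, 6 were past 1.5-fold and 1 past 2-fold, with a median of -0.35. The last was Trdn, which anchors calsequestrin at the calcium release channel, at 60.8 CPM on TCP and 28.7 CPM on GelMA. The median was -0.22 for 20 acetylcholine receptor and endplate genes, of which Chrnb1 (383.7 CPM and 243.8 CPM) and Colq (11.9 CPM and 6.02 CPM) had the lowest ratios and 6 were above 0. It was -0.10 for 25 dystrophin complex genes, where Trim72 had a log2 ratio of -0.65. Among 30 muscle energy genes, Fabp3, the fatty acid carrier of muscle and heart, was past 2-fold, at 57.7 CPM and 24.99 CPM. The median of these 30 was -0.23, with 7 above 0 and 23 below. Past 1.5-fold, 6 were lower on GelMA and none higher. The summed level of these energy genes was 12893 CPM on TCP and 12861 CPM on GelMA.

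The fusion genes had no common direction. Of 47 kept, 24 had a ratio above 0 and 23 below, with a median of 0.01. The gene past 2-fold was Fst, which encodes follistatin, an antagonist of myostatin and activin, at 187.4 CPM on TCP and 89.0 CPM on GelMA, 2.11-fold lower (interval 2.05 to 2.16). Cav3, the muscle caveolin, was at 70.5 CPM and 47.2 CPM (log2 ratio -0.57), and Npnt, a ligand of the integrin alpha8 chain, at 970.5 CPM and 699.8 CPM (-0.47). The integrin Itga7 was at 2360 CPM and 2073 CPM.

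Genes of mitosis were higher on GelMA, each by a small factor. Of 107 kept G2 and M phase genes, 105 had a ratio above 0, 20 were past 1.5-fold and none past 2-fold, and the median log2 ratio was 0.46 (quartiles 0.29 and 0.55). Their summed level was 2008 CPM on TCP and 2660 CPM on GelMA. Mki67, a protein of the chromosome surface used as a marker of cycling cells, was at 42.6 CPM and 74.7 CPM (log2 ratio 0.80). Cit, the kinase of the midbody, was at 7.63 CPM and 15.5 CPM (0.94), and Kif15, a spindle motor, at 6.88 CPM and 12.8 CPM (0.81). Aspm and Cenpf, at the spindle pole and the kinetochore, had log2 ratios of 0.78 and 0.77. Top2a, which untangles chromosomes, was at 76.5 CPM and 113.5 CPM (0.56).

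The genes of DNA replication followed with a smaller difference. Of 76 kept S phase genes, 67 had a ratio above 0 and 6 were past 1.5-fold, with a median of 0.22. Cdc6, which loads the replicative helicase, was at 3.63 CPM and 6.55 CPM, while Pcna, the sliding clamp, was at 101.2 CPM and 101.7 CPM. Among 38 genes of G1 and cell cycle exit the median was -0.06. Cdk6, a kinase of G1, was past 2-fold, at 5.03 CPM on TCP and 11.2 CPM on GelMA, 2.22-fold higher (interval 2.01 to 2.46). Its partner Ccnd1 lay just outside, at 28.6 CPM and 58.1 CPM (log2 ratio 1.00), and the inhibitor Cdkn1a was at 1480 CPM and 1204 CPM (-0.30).

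The clustered histone genes, whose transcripts are made in S phase and mostly lack a poly(A) tail, were lower on GelMA. Of 68 in the files only 23 were kept, and 21 of these had a ratio below 0, 11 past 1.5-fold and 2 past 2-fold, with a median of -0.54. The genes past 2-fold, Hist2h3c1 and Hist2h3c2, had the same 1398 and 464 counts and cannot be taken as separate measurements. Hist1h2bc was at 51.7 CPM on TCP and 26.04 CPM on GelMA. With no filter on level, the median over all 68 was -0.05.

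The sequence before the start of these genes was examined for short motifs, as a description without a test. RefSeq promoters (GRCm38.p6), from 250 bases before to 50 bases after the start, were matched by symbol for 86 of 107 G2 and M phase genes (94 promoters), 28 of 33 thick filament genes (30 promoters) and 40 of 52 thin filament genes (51 promoters). Both strands were searched. The letters TTTGAA or TTCAAA, the core of the cell cycle gene homology region, stood in 62.8% of the G2 and M phase promoters, against 17.9% of all 32851 promoters and 12.1% of those of the genes kept. CCAAT or ATTGG stood in 71.3% of them, against 37.4% and 37.7%. CAGCTG, an E-box of the kind bound by MyoD, stood in 12 of 30 thick filament promoters and 17 of 51 thin filament promoters, against 16.3% of all promoters and 15.8% of those of the genes kept. TATAAA or TTTATA stood in 36.7% of the thick filament promoters, 13.6% of all and 7.2% of those of the genes kept. GGGCGG or CCGCCC stood in 16.7%, 35.7% and 61.2%. The thin filament promoters held the former in 15.7% and the latter in 39.2%. No motif contains another, and each was counted separately.

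The 250 bases before the start of Mki67 (chr7:135716380-135716629, minus strand) and Top2a (chr11:99024190-99024439, minus strand) are shown as examples of the mitotic genes, 5′ to 3′ along the gene, with TTTGAA or TTCAAA in capitals. In Mki67 the matches begin 116 and 98 bases before the start, and in Top2a 179 and 23 bases before it.
Mki67: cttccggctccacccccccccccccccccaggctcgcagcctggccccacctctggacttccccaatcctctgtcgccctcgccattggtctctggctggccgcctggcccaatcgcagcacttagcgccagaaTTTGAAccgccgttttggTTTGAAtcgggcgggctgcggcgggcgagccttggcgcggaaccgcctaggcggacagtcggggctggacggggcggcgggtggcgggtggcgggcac
Top2a: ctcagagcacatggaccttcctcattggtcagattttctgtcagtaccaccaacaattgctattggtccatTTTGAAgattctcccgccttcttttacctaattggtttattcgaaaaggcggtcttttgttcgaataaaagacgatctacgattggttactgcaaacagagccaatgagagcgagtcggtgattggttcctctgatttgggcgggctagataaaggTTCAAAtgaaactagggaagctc

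For Myh4 (chr11:67237562-67237811, plus strand) and Mylpf (chr7:127211358-127211607, plus strand), a fast myosin heavy chain and the fast light chain, the capitals mark CAGCTG, which begins 67 and 51 bases before the start. Mylpf was at 6926 CPM on TCP and 4853 CPM on GelMA, a log2 ratio of -0.51. A match is a description of the letters and not a measured binding site.
Myh4: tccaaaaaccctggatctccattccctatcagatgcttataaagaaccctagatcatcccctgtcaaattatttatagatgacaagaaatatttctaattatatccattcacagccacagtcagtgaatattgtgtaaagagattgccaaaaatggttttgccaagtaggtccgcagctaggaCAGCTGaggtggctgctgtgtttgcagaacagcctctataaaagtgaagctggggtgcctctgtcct
Mylpf: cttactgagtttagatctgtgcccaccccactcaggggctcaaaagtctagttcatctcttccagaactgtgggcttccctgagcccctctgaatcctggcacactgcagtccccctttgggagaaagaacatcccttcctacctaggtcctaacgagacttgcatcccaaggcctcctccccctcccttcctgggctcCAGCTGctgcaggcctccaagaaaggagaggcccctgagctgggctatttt

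**Figure D3:**
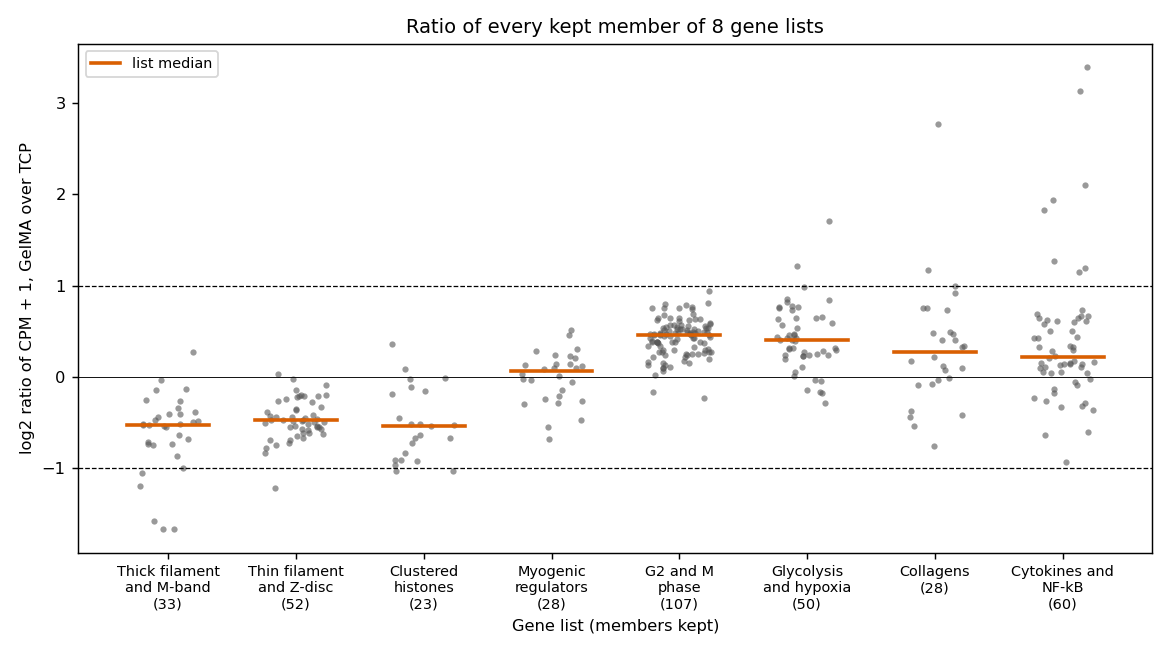
The log2 ratio of CPM + 1, GelMA over TCP, of every kept member of 8 gene lists, with the number of members under each name, an orange bar at the list median, dashed lines at 2-fold and points spread sideways only to show them. The sarcomere and histone lists lie below 0, the G2 and M phase list lies in a narrow band above 0, and the cytokine list is spread, with 8 members past 2-fold.

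Secreted factors of inflammation held 5 of the 20 largest ratios on the higher side, C3 and Cxcl5 leading. Of 87 listed cytokine, chemokine and NF-kB genes 60 were kept, and a gene can pass the level filter through the library where it is high. Of the 60 kept, 8 were more than 2-fold higher on GelMA and none lower. Past 1.5-fold, 18 were higher and 3 lower, and the list median was 0.22. C3, the central complement component, had 13 counts on TCP and 964 on GelMA, or 0.107 CPM and 10.6 CPM, a 99.4-fold difference (interval 57.8 to 187). Cxcl5, a chemokine for neutrophils, was at 1.88 CPM and 24.2 CPM, 12.9-fold higher (interval 11.2 to 14.8). Cxcl1, which acts on the same receptor, was at 1.47 CPM and 9.56 CPM, 6.50-fold higher (interval 5.53 to 7.68). Even on GelMA these transcripts were a small part of the RNA.

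The monocyte chemokines Ccl2 and Ccl7 rose from 2.64 CPM and 2.61 CPM on TCP to 12.9 CPM and 7.68 CPM on GelMA, or 4.89-fold (interval 4.32 to 5.55) and 2.94-fold (interval 2.57 to 3.37). C1s1, a protease of the classical complement pathway, was at 4.00 CPM and 16.8 CPM, and its near copy C1s2, in no list, at 0.739 CPM and 3.17 CPM. Reads can be split between such copies. Cxcl16 was at 1.83 CPM and 5.46 CPM, and the acute phase gene Saa3 at 0.173 CPM and 1.60 CPM. In the opposite direction Il15, a cytokine made by muscle, was at 7.05 CPM and 3.22 CPM (log2 ratio -0.93). In the GelMA-PSS library Cxcl5 was at 41.2 CPM, Cxcl1 at 18.2 CPM, Ccl2 at 11.98 CPM and C3 at 7.41 CPM. Ccl5, which the study also followed, was under 1 CPM in both libraries and was not kept.

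A motif of 10 letters for NF-kB was searched on both strands after these values were seen. It stood in 23.1% of 52 promoters of the cytokine list (41 of 60 symbols matched) in 1.6% of all promoters and in 1.7% of those of the genes kept. Members were listed in part as known NF-kB targets. The 250 bases before Cxcl1 (chr5:90890995-90891244, plus strand) are shown because the gene holds the motif on both strands, in capitals, beginning 89 and 71 bases before the start.
Cxcl1: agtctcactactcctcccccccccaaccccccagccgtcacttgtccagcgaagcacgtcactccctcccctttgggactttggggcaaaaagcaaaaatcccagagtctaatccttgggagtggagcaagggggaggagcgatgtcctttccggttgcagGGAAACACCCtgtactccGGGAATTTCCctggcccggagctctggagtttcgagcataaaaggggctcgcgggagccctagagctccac

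**Figure D4:**
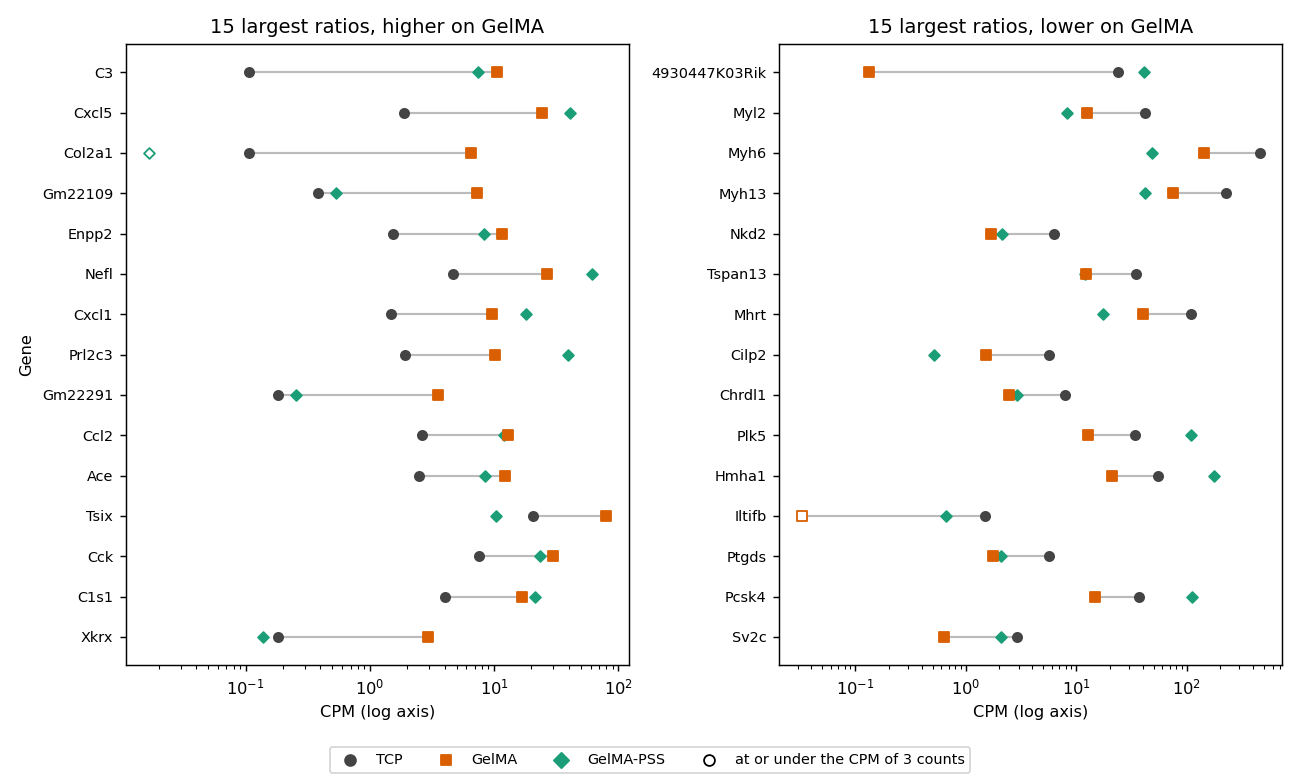
The 15 genes with the largest ratio in each direction, with the CPM on a log axis of the TCP library (circles), the GelMA library (squares) and the GelMA-PSS library (diamonds), and open symbols at the CPM of 3 counts for values at or under it. On the left the squares lie to the right of the circles, by up to 99.4-fold at C3, and on the right they lie to the left, with the widest gap at 4930447K03Rik.

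Other genes of signaling to neighbouring cells were among the 20 largest. Enpp2, the enzyme that makes lysophosphatidic acid, was at 1.53 CPM on TCP and 11.7 CPM on GelMA (log2 ratio 2.32). Ace, the angiotensin converting enzyme, was at 2.497 CPM and 12.3 CPM, Cck, the peptide cholecystokinin, at 7.61 CPM and 30.05 CPM, and Alox5ap, which serves leukotriene synthesis, at 3.43 CPM and 12.4 CPM. Prl2c3 and Prl2c2, members of the prolactin family, had log2 ratios of 1.95 and 1.64, and as near-identical copies they can share reads. Of 51 kept genes of FGF and ERK feedback, 2 were past 2-fold, both higher on GelMA. They were Hgf, the ligand of the Met receptor that activates satellite cells, at 21.3 CPM and 59.4 CPM, 2.78-fold higher (interval 2.65 to 2.92), and Fgf7 at 2.67 CPM and 6.49 CPM. Of 58 kept interferon-stimulated genes, Ifitm1 (8.52 CPM and 21.4 CPM) and Gbp6 (0.140 CPM and 1.46 CPM) were past 2-fold, and the list median was 0.12. Gbp6 passed the level filter only through the GelMA library, so its direction follows from the filter. Of all genes kept, 0.715% were more than 2-fold higher.

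Matrix genes rose and fell within the same lists. Of 44 listed collagen chains 28 were kept. Of these, 2 were past 2-fold higher on GelMA, where 0.715% of all genes kept were. Past 1.5-fold, 7 (25%, against 3.52% of all genes kept) were higher and 1 (3.57%, against 2.15%) lower. The median was 0.27, and 0.20 over the 26 chains with at least 1 CPM in both libraries. Col2a1, the fibrillar collagen of cartilage, had 13 counts on TCP and 592 on GelMA (0.107 CPM and 6.51 CPM), and 0.0110 CPM on GelMA-PSS. It passed the level filter only through the GelMA library, so its direction follows from the filter. Col18a1, a basement membrane collagen, was at 63.3 CPM and 143.6 CPM, 2.27-fold higher (interval 2.21 to 2.34). Col6a3 lay at the edge of 2-fold, at 158.2 CPM and 316.9 CPM (log2 ratio 1.00). Col3a1, the most abundant chain per kilobase, was at 1907 CPM and 3221 CPM (0.76), while Col12a1 and Col25a1 had log2 ratios of -0.53 and -0.76.

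Among 29 kept basement membrane and adhesive matrix genes, Fbln1 was past 2-fold higher, at 10.97 CPM on TCP and 27.2 CPM on GelMA, and Mfap4 past 2-fold lower, at 2.19 CPM and 0.572 CPM. Fn1, the fibronectin gene and the most abundant of the list per kilobase, was at 4013 CPM and 6300 CPM (log2 ratio 0.65). The nidogens, which link laminin to collagen, had log2 ratios of opposite sign, 0.63 for Nid1 and -0.69 for Nid2. Of 41 kept matricellular proteins and proteoglycans, 4 were past 2-fold, all higher on GelMA. Spp1, or osteopontin, was at 2341 CPM and 4970 CPM, 2.12-fold higher (interval 2.11 to 2.13), and was the most abundant gene past 2-fold per kilobase, among those with a known length. Vcan, a large proteoglycan, was at 102.6 CPM and 229.8 CPM, Tnc, the tenascin of injured tissue, at 117.0 CPM and 242.3 CPM, and Loxl2, which crosslinks collagen, at 26.8 CPM and 54.8 CPM. Ctgf, in contrast, was at 171.7 CPM and 87.2 CPM (log2 ratio -0.97). Once length and GC effects were subtracted, the log2 ratios of Vcan (0.98), Tnc (0.93), Loxl2 (0.95) and Mfap4 (-0.97) lay inside 2-fold. Those of Spp1 (1.17) and Fbln1 (1.24) stayed past it. None of 41 kept proteases and inhibitors was past 2-fold, with a median of 0.16.

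No gene of the adhesion and mechanical signaling lists was past 2-fold, which is near the share of all genes kept (0.715% higher and 0.300% lower). Of 74 kept integrin and focal adhesion genes, 7 (9.46%) were more than 1.5-fold higher and 2 (2.7%) more than 1.5-fold lower. The shares of all genes kept were 3.52% and 2.15%. The median of the 74 was 0.05. The filamin Flna, which crosslinks actin, was at 915.1 CPM on TCP and 1496 CPM on GelMA. Itgb3, a subunit of the vitronectin and osteopontin receptor, was at 26.6 CPM and 47.3 CPM, and Itga10, a subunit of a collagen receptor, at 41.4 CPM and 24.5 CPM. The focal adhesion kinase Ptk2 was close to level, at 107.4 CPM and 113.5 CPM. Among 41 YAP and TEAD targets the median was -0.03. Ctgf and Cyr61, the best known of them, had log2 ratios of -0.97 and -0.60, and Fstl1 and Axl had 0.68 and 0.56. Among 32 SRF targets the nonmuscle actins Actb and Actg1 had log2 ratios of 0.47 and 0.51, and Tagln and Tpm2 had -0.81 and -0.58.

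Genes of glycolysis and of the response to low oxygen were higher on GelMA. Of 50 kept, 44 had a ratio above 0, 16 were past 1.5-fold and 2 past 2-fold, with a median log2 ratio of 0.41. Car9, a carbonic anhydrase at the cell surface, was at 10.0 CPM on TCP and 35.0 CPM on GelMA, 3.50-fold higher (interval 3.28 to 3.74), and Ak4, a mitochondrial adenylate kinase, at 8.02 CPM and 19.9 CPM. Slc16a3, which exports lactate, was at 31.9 CPM and 56.9 CPM (log2 ratio 0.82), Pfkfb3 at 5.68 CPM and 11.1 CPM (0.86) and Ndrg1 at 112.5 CPM and 203.4 CPM (0.85). The most abundant member per kilobase, Gapdh, was at 4904 CPM and 5291 CPM (0.11). The median of 80 kept genes of the respiratory chain and ATP synthase was -0.15, with 74 below 0 and none past 2-fold. Of these, the muscle isoform Cox6a2 had the lowest ratio, at 47.9 CPM and 31.1 CPM.

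The letters ACGTG, which belong to hypoxia response elements, were also searched after these values were seen, together with CACGT on the other strand. They stood in 51.6% of 62 promoters of the glycolysis and hypoxia list (44 of 50 symbols matched), against 25.3% of the promoters of the genes kept and 19.6% of all. Members were listed in part as genes of the response to low oxygen. The same 62 promoters held GGGCGG or CCGCCC in 75.8%, against 61.2% of those of the genes kept. Slc16a3 (chr11:120948817-120949066, plus strand) is shown because it holds ACGTG 2 times within 30 bases, beginning 27 and 14 bases before the start.
Slc16a3: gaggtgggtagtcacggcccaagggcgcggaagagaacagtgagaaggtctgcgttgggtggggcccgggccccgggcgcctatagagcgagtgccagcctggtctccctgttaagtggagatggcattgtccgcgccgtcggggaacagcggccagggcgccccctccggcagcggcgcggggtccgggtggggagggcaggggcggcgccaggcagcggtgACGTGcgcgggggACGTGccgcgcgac

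The signaling lists the study followed had medians near 0. Of 49 kept insulin and IGF pathway genes, none was past 2-fold and the median was -0.06. Igf1 was at 2.70 CPM on TCP and 2.18 CPM on GelMA, Pik3r1, the regulatory subunit of PI3K, at 52.4 CPM and 51.0 CPM, and Mtor at 114.7 CPM and 122.5 CPM. Of 56 kept Wnt pathway genes, 2 were past 2-fold, both lower on GelMA, and the median was -0.02. These were Nkd2, an inhibitor that binds Dishevelled, at 6.28 CPM and 1.68 CPM, and Apc2 at 34.5 CPM and 16.3 CPM. Apc2 lies among the chromosome 10 neighbours named below, which were also lower on GelMA. Lrp5, a Wnt receptor, was at 70.5 CPM and 110.1 CPM (log2 ratio 0.64), the target gene Axin2 at 3.35 CPM and 2.25 CPM (-0.42), Ctnnb1 at 466.0 CPM and 521.4 CPM (0.16), and Klf4 at 152.8 CPM and 123.4 CPM (-0.31).

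Some ligands and antagonists of BMP signaling were lower on GelMA. Of 49 kept TGF-beta and BMP pathway genes, 3 were past 2-fold, all lower, and the median was -0.07. They were the ligand Bmp4, at 17.3 CPM on TCP and 7.76 CPM on GelMA, the BMP antagonist Chrdl1, at 7.90 CPM and 2.48 CPM, and Fst. Nog and Chrd, which also bind BMPs, had log2 ratios of -0.91 and -0.70, and the BMP antagonist Grem1 had 0.54. Of 26 kept Notch genes none was past 2-fold. Notch2 and Notch3 had log2 ratios of 0.68 and 0.62, and Hes6, which favours differentiation, was at 209.6 CPM and 143.2 CPM (-0.55).

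The lists of atrophy, lipid synthesis, translation, stress, junction and immediate early genes had medians near 0. Of 50 kept genes of atrophy, autophagy and FoxO, Txnip, an inhibitor of thioredoxin and glucose uptake, was past 2-fold higher, at 61.8 CPM on TCP and 147.2 CPM on GelMA, and Fbxo40, an F-box protein of muscle, past 2-fold lower, at 5.38 CPM and 1.90 CPM. The ubiquitin ligase Trim63 was at 97.46 CPM and 68.2 CPM (log2 ratio -0.51). Of 50 kept genes of cholesterol and fatty acid synthesis, the cholesterol exporter Abca1 was past 2-fold higher, at 4.21 CPM and 11.5 CPM, and the list median was -0.09. The medians were 0.13 for 81 cytosolic ribosomal protein genes, -0.11 for 60 unfolded protein and amino acid stress genes, -0.12 for 40 heat shock genes, -0.07 for 35 p53 targets, -0.04 for 48 oxidative stress genes, 0.07 for 34 junction genes and 0.08 for 40 immediate early genes, with no member past 2-fold. Fosl1, an AP-1 subunit and the largest ratio of the last list, was at 6.39 CPM and 12.7 CPM.

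**Figure D5:**
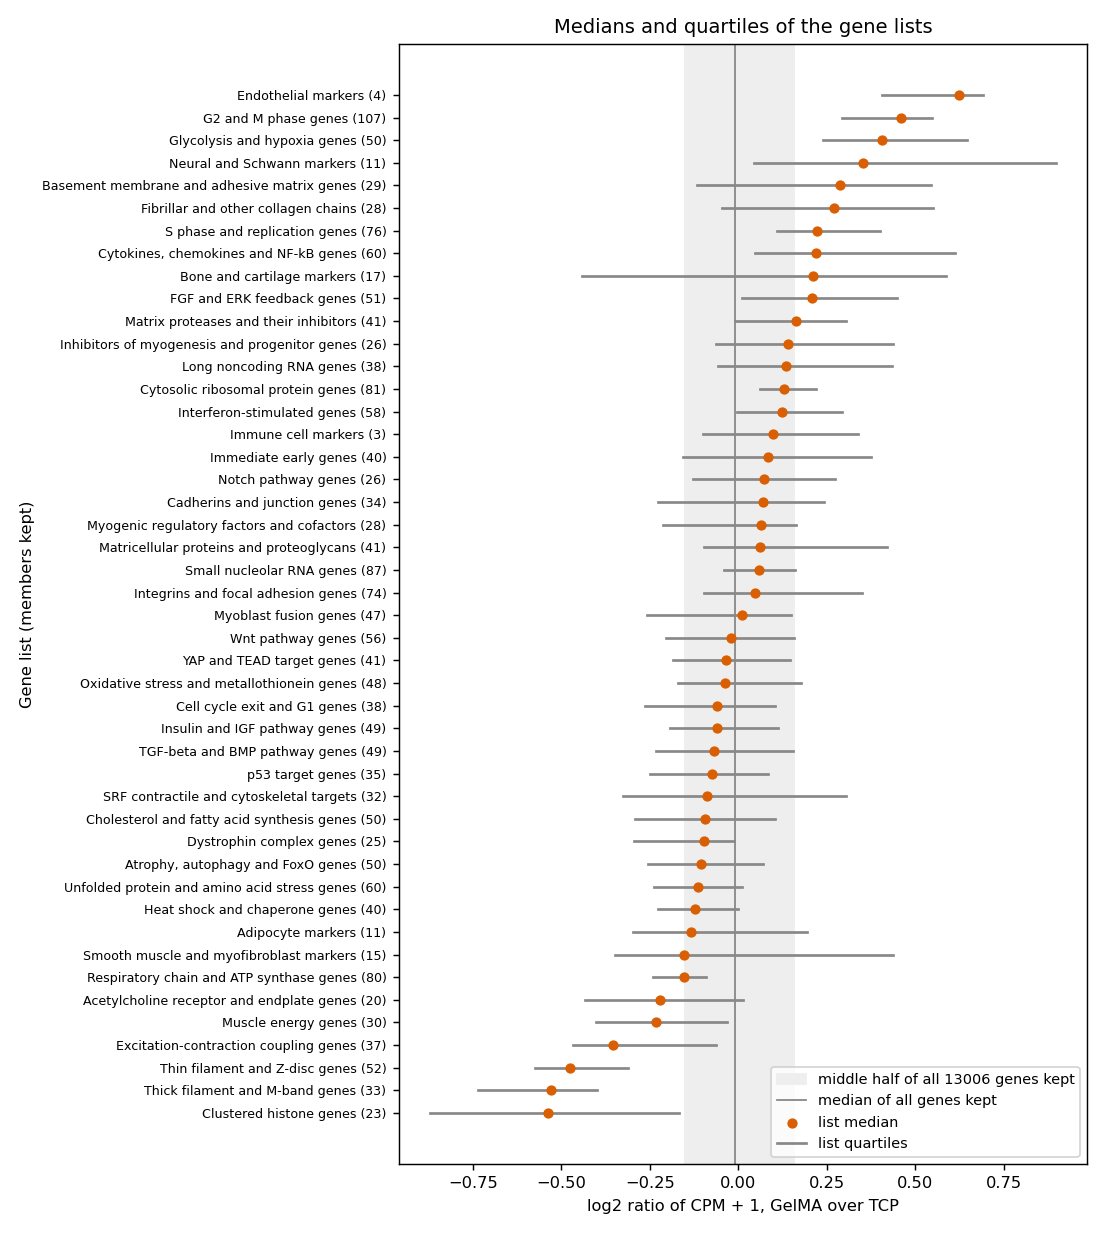
Median (points) and quartiles (bars) of the log2 ratio of CPM + 1, GelMA over TCP, for the 46 gene lists, with the number of members kept in brackets and a grey band between the quartiles of all 13006 genes kept, from -0.15 to 0.16. The clustered histone, thick filament and thin filament lists lie lowest, and the endothelial markers (4 genes kept), G2 and M phase and glycolysis and hypoxia lists lie highest.

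Markers of other cell types were compared as whole lists. Immune markers summed to 5.63 CPM on TCP and 6.54 CPM on GelMA, with 3 of 17 kept, and Ptprc, the antigen of all leukocytes, had 0 counts in both libraries. Endothelial markers summed to 10.2 CPM and 14.7 CPM, with 4 of 17 kept, and Pecam1 had 4 and 11 counts. Adipocyte markers summed to 320.4 CPM and 329.7 CPM, with 11 of 22 kept, and Adipoq had 8 and 2 counts. Smooth muscle and myofibroblast markers summed to 4296 CPM and 3586 CPM. Of these lists no member was past 2-fold, and their part in the chemokine values was not tested.

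Neural markers summed to 141.5 CPM on TCP and 217.2 CPM on GelMA, and 3 of 11 kept were past 2-fold. They were the neurofilaments Nefl, at 4.67 CPM and 26.5 CPM, 5.67-fold higher (interval 5.17 to 6.22), and Nefm, at 2.96 CPM and 8.37 CPM, and the growth cone protein Gap43, at 4.67 CPM and 15.4 CPM. Nefl and Nefm overlap on opposite strands in the annotation. The glial marker Sox10 had 2 and 5 counts. Bone and cartilage markers summed to 2627 CPM and 5217 CPM, of which Spp1 made 2341 CPM and 4970 CPM. Of the 17 kept, 10 had a ratio above 0 and 7 below, with a median of 0.21, and past 1.5-fold 5 were higher and 3 lower. Beside Col2a1, some cartilage genes under the level filter had counts mainly on GelMA, with 4 and 43 for Acan, 0 and 77 for Col9a1 and 1 and 21 for Matn1. Cilp2, a cartilage matrix protein in no list, went the other way, at 5.65 CPM and 1.52 CPM. The bone genes Bglap and Bglap2 had log2 ratios of -0.78 and -0.70, and the tendon factor Scx was at 174.3 CPM and 111.8 CPM (-0.64). Acan, Col9a1 and Matn1 were picked from the genes under the filter after their values were seen, and do not stand for the others. With no filter on level, the median was 0.085 over 27 bone and cartilage genes.

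Some nuclear noncoding RNAs and copies of ribosomal RNA were among the genes higher on GelMA. Malat1, a nuclear transcript, was at 557.0 CPM on TCP, 1344 CPM on GelMA and 185.5 CPM on GelMA-PSS. Xist was at 404.5 CPM, 799.1 CPM and 166.6 CPM, and its antisense partner Tsix at 20.6 CPM, 79.7 CPM and 10.4 CPM. The reads of Tsix may be those of Xist, which it overlaps. The long intergenic transcript 4930470H14Rik was at 16.1 CPM, 55.1 CPM and 5.28 CPM. All of these stood highest on GelMA and lowest on GelMA-PSS. Of 38 kept genes of the long noncoding list, Malat1 was the member past 2-fold, and the median was 0.13. H19, the most abundant of them per kilobase, was at 15345 CPM on TCP and 14726 CPM on GelMA. The 87 kept small nucleolar RNA genes had a median of 0.06, with none past 2-fold.

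All 6 kept ribosomal RNA genes were past 2-fold higher on GelMA. None of them reached 1 CPM on TCP, so they passed the level filter only through the GelMA library, and their common direction follows from the filter. They are copies annotated 119 bases long on the minus strand of chromosome 8 (GRCm38), from 123565969 to 123620359, among them Gm22109 with 0.386 CPM on TCP and 7.24 CPM on GelMA, Gm22291 with 0.181 CPM and 3.51 CPM, and Gm26391 with 0.123 CPM and 2.44 CPM. Gm25018 and Gm25212 had the same 7 and 113 counts, so reads of these copies were not separated. Lars2, the mitochondrial leucyl-tRNA synthetase gene, was at 428.0 CPM, 1040 CPM and 147.5 CPM in the order TCP, GelMA, GelMA-PSS.

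On the lower side, the largest ratio was that of 4930447K03Rik, a noncoding transcript on chromosome 13, with 2885 counts on TCP and 12 on GelMA (23.7 CPM and 0.132 CPM), and 41.4 CPM on GelMA-PSS. Iltifb, a copy of the interleukin 22 gene, had 180 counts on TCP and 0 on GelMA, at least 44.8-fold lower when the floor of 3 counts is set for GelMA, while the exact interval reaches down to 36.04-fold. Tspan13, a tetraspanin, was at 34.8 CPM and 12.3 CPM, and Cilp2, a matrix protein of cartilage, at 5.65 CPM and 1.52 CPM. Ptgds, a prostaglandin synthase, was at 5.71 CPM and 1.76 CPM. The group also held Plk5, Hmha1, Pcsk4 and Grin3b, neighbours on chromosome 10, which ranged from 23.8 CPM to 54.7 CPM on TCP and from 9.82 CPM to 21.0 CPM on GelMA. On GelMA-PSS they ranged from 67.9 CPM to 176.3 CPM. Apc2, of the Wnt list, lies in the same stretch and was at 105.5 CPM on GelMA-PSS. These neighbours were named because they were past 2-fold, and other genes of the stretch differed less. Tmem259, which overlaps Grin3b, had a log2 ratio of -0.27, and 2310011J03Rik, which overlaps Apc2, had -0.09.

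The log2 ratio rose slightly with transcript length and a correction for it left the sign of the sarcomere, mitosis and glycolysis medians as it was. The median ratio was -0.05 in the tenth of genes with the shortest transcripts and 0.14 in the tenth with the longest. After loess fits on length and GC content were subtracted, the medians were -0.54 for the thick filament, -0.49 for the thin filament, 0.47 for G2 and M phase and 0.45 for glycolysis and hypoxia. Some medians near 0 changed sign, to -0.07 for fusion, -0.04 for junction and 0.01 for oxidative stress genes. Among the named genes past 2-fold, Ace, Txnip, Cxcl16, Col18a1, Fgf7, Mfap4, Apc2, Trdn, Bmp4, Fabp3, Grin3b, Myl2 and Tsix overlap a gene on the opposite strand, and their reads cannot be told apart from its reads if the counting did not use strand.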

How the data were processed

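C2C12 cells on TCP, GelMA and GelMA-PSS gave 1 library each. The authors deposited counts per gene symbol, whole numbers without normalization, and the FPKM values named in their methods were not used here. The submitters' processing notes name TopHat, edgeR, mm10 and hg19 with no role, and the counting tool is not given in the sources used here. The methods describe strand-specific paired-end reads from a TruSeq kit, and the sample labels name a SMARTER kit. Whether both reads of a pair were counted is not stated. If they were, the counting intervals are too narrow, so they were also computed with all counts divided by 2.

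The files hold 23282 lines, and the 35 repeated symbols were summed, which left 23238. Counts were scaled to CPM with TMM factors over the 3 libraries (edgeR 4.0.16, R 4.3.3), and the genes reaching 1 CPM in at least 1 of the GelMA and TCP libraries were kept. Log2 ratios of CPM + 1 were taken in Python 3.11.15. Intervals are Clopper-Pearson intervals at 95% (scipy 1.17.1) of the share of GelMA counts, turned into a fold. GENCODE vM21 (GRCm38) gave transcript length and GC content for 12900 of the 13006 genes kept, 12506 matched directly and 394 through older symbols, and 106 had none. The correction used loess fits of span 0.3 (statsmodels 0.14.6). The script was tested on simulated data.

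The comparison, the 46 gene lists and the naming rule were chosen with earlier results of these data known. Names follow this rule: the 20 largest ratios in each direction, list members past 2-fold, up to 6 members of a list by ratio and 3 by level, the genes the study followed, and the 3 largest ratios in each of 5 level classes. Other names were chosen after their values were seen. Genes of the mitochondrial genome, qPCR, Western blots and animal experiments were not analysed here, and a few genes that the naming rule covers are not reported here. Alternatives covered scaling (DESeq2 1.42.0 size factors among them), pseudocount, filter, repeated symbols, length and GC content, and the fold threshold.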

Additional observations from a re-analysis of the deposited data

How the results depend on the processing

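The counts of genes past 2-fold, 93 higher and 39 lower on GelMA, depended on the pseudocount and the threshold. With a pseudocount of 0.25 CPM they were 163 and 87, with 5 CPM they were 30 and 15, and at 1.5-fold they were 458 and 279. Under the 5 scaling alternatives they ran from 91 to 104 and from 35 to 39, and under the filters, the summing of repeated symbols and the length and GC content correction from 65 to 93 and from 34 to 39. When the whole counting interval had to be past 2-fold, the counts were 88 and 35, and with all counts divided by 2, an alternative chosen after seeing the data, 83 and 30. The median of the G2 and M phase genes was 0.50 with CPM from library totals and also with TPM, and 0.36 with a pseudocount of 5 CPM, against 0.46. No list median of 0.2 or more from 0 changed sign under any alternative run. Single genes were run only for the 20 largest ratios in each direction and for genes the study followed. None of these genes with a ratio of 0.2 or more from 0 changed sign. Medians nearer to 0 had the other sign under at least 1 alternative for the fusion, junction, YAP, SRF, Wnt, IGF, oxidative stress, smooth muscle, immune and small nucleolar RNA lists. Among the runs of single genes, 14 fell short of 2-fold for a gene past it in the main setting, and 1 passed it for a gene that had not. For example, Myh4 was at -0.99 with TPM and Myh7 at -1.08 after the length and GC content correction. That correction also left Vcan (0.98), Tnc (0.93), Loxl2 (0.95), Cdk6 (0.84), Mfap4 (-0.97), Hist2h3c1 (-0.97) and Hist2h3c2 (-0.97) inside 2-fold. No paired analysis was possible because each substrate has 1 library, and leaving out a library was not possible for the same reason. The design gives no measure of how cultures on the same substrate vary. Depth limits most the genes with few counts in either library, and 3 counts, worth 0.0246 CPM on TCP and 0.0330 CPM on GelMA, lie far under the level filter.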

Other observations

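The low counts were not evenly spread over odd and even numbers. On TCP 426 genes had 1 count and 543 had 2 counts, and on GelMA 651 and 866. Of all genes with 1 to 20 counts, 51.3% had an even count on TCP and 53.6% on GelMA. More genes had at least 1 count on GelMA (18710) than on TCP (17903), although the GelMA library was less deep.

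Some genes passed 2-fold from near 0 on TCP. Muc19 had 3 counts on TCP and 135 on GelMA, a ratio of 60.3 with a counting interval from 20.2 to 296, and Ankar had 1 and 97, a ratio of 130 with an interval from 22.8 to 5186. In the GelMA-PSS library they were at 0.00552 CPM and 1.59 CPM. Both were named after their values were seen.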
